A study of Saccharomyces cerevisiae with 10 samples.

Results

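All yeast taken during oven drying was set against fresh yeast of 0 h. The aim was to separate changes held through the whole of drying from brief ones. Commercial baker's yeast (Saccharomyces cerevisiae) was grown in fed-batch culture, compressed, spread on aluminium trays and dried by an air stream in an oven at 37 degrees C. Arrays of 1, 2, 4 and 8 h of drying, 2 per time, made up the 8 dried arrays, and the 2 arrays of 0 h were the fresh yeast, so all 10 arrays of the series were used. All groups shared the same culture type and the same pressing, and the labels give neither a strain nor a genotype. The duplicates were independent experiments per the series' design text, without a statement on whether they were separate cultures. Every dried array had also been in the warm oven, and no array came from yeast kept warm without drying, so heat, time in the oven and loss of water cannot be told apart.

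Drying exposes a yeast cell to heat, to rising solute concentration and to protein damage. Yeast is known to answer such conditions with chaperones, which refold or sequester damaged proteins, and with the general stress response, which also makes trehalose and glycerol. Cells short of sugar turn on peroxisomal beta-oxidation, which breaks fatty acids down to acetyl-CoA, and exchange the glucose transporters of their plasma membrane. Genes for tRNA and small nucleolar RNA (snoRNA), which guide modification of ribosomal RNA, make products that need no poly(A) tail, while the RNA measured here was enriched for poly(A).

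Values are given as signal over the array median, that is, the deposited intensity divided by the median of all probe sets of yeast sequences on the same array. A change is the mean log2 value of the 4 drying times minus that of fresh yeast, with its standard error (SE) from limma, n = 8 dried and 2 fresh arrays. The adjusted p is limma's, adjusted over 5365 genes by the Benjamini-Hochberg method. A gene passed at an adjusted p below 0.05, and it was counted as held when it passed and its 8 dried arrays also lay on one side of both fresh arrays. Median intensities were 23.6 to 115.4 on the dried arrays, against 42.3 and 98.5 on the fresh arrays. Actin signal at the 3' end over that at the 5' end, which rises as RNA is broken down or cDNA is cut short, was 2.64 to 6.64 on the dried arrays, against 5.38 and 2.62 on the fresh arrays. Its highest values were on the dimmest arrays, replicate 1 of 2 h (6.64) and replicate 1 of 8 h (6.44). Of 7 abundant transcripts chosen as marks of growing yeast, 6 had a probe set, and their mean signal was 19.0 to 185.2 times the array median.

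Dried yeast differed from fresh yeast in 113 of 5365 genes (2.11%), of which 73 were higher (1.36%) and 40 lower (0.746%). The change was at least 2-fold for 61 of the higher and 30 of the lower genes. Held changes numbered 94: 57 genes were higher on all 8 dried arrays than on either fresh array, and 37 were lower on all of them. Among all genes tested, whether they passed or not, 449 (8.37%) had all dried arrays on one side, 241 above (4.49%) and 208 below (3.88%). The remaining 19 genes that passed, 16 higher and 3 lower, had dried arrays that overlapped the fresh ones. Protein-coding genes made up 67 of the higher and 28 of the lower genes, tRNA genes 5 and 9, and snoRNA genes 1 and 3. The median change of all genes was -0.00 log2 units, and 412 genes were higher and 223 lower at an unadjusted p under 0.05. Leaving out replicate 1 of fresh yeast gave 27 calls, 25 of them among the 113, and leaving out replicate 2 gave 42, with 36 among the 113. The count was 68 without replicate 1 of 1 h and 191 without replicate 2 of 8 h, and in place of 94 held genes there were 26 or 40 with the first or second fresh array left out and 60 with replicate 1 of 1 h left out. There were 18 calls that passed whichever single array was left out, 11 higher and 7 lower. All 7 lower ones were tRNA genes, read by probe sets that can each bind several near-identical genes.

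**Figure D1:**
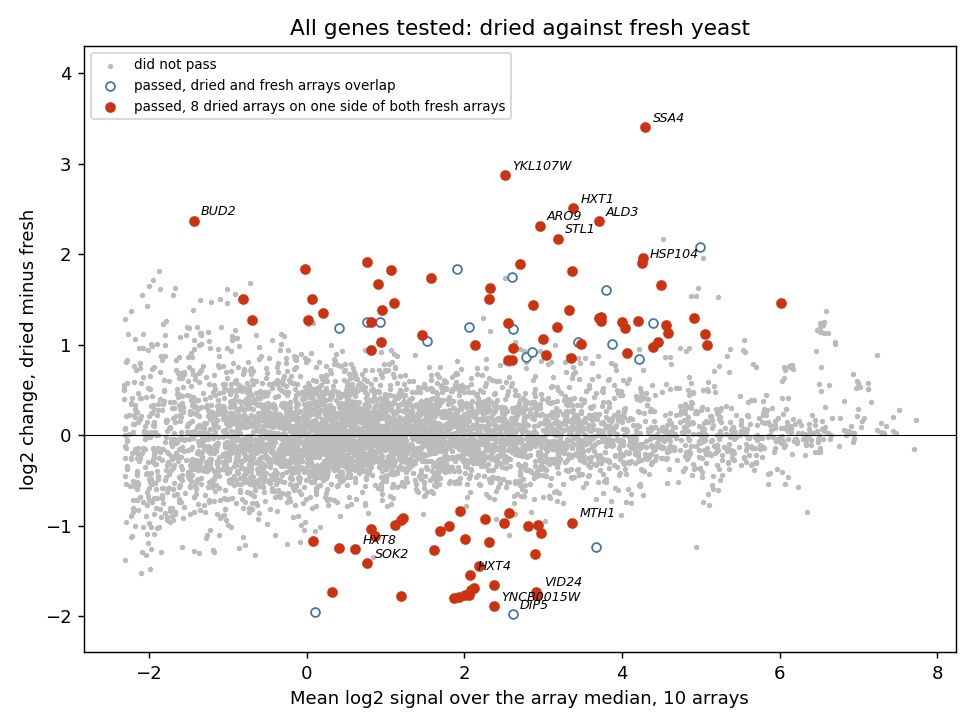
Change of each of the 5365 genes tested (y axis, log2 of dried over fresh) against its mean log2 signal over the array median on 10 arrays (x axis). Filled points are the 94 held genes, open points the 19 that passed with overlapping arrays, and small grey points the genes that did not pass. SSA4 is the highest point at 3.40, DIP5 the lowest at -1.98, and 4 of the 113 genes that passed had a mean signal below the array median, against 29.8% of all genes.

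Chaperones held the largest rise among genes named by a probe set. SSA4, a stress-inducible cytosolic Hsp70, read 17.6 to 55.2 times the array median on the dried arrays (median 30.9), against 3.4 and 2.61 on the fresh arrays. The lowest dried array was thus far above the higher fresh array. The change was 3.40 ± 0.24 log2 units, or 10.6-fold (SE, n = 8 dried and 2 fresh arrays, adjusted p = 4.41e-06), and stood at 4.15, 2.93, 3.62 and 2.90 at 1, 2, 4 and 8 h. SSA3, a second inducible Hsp70, read 4.63 to 20.2 on the dried arrays (median 7.57), against 2.24 and 2.35 on the fresh arrays. It rose by 1.89 ± 0.18 (adjusted p = 4.3e-05), with its highest values on the 1 h arrays and no overlap with fresh yeast at any time.

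A disaggregase, its mitochondrial relative and a sequestrase of misfolded proteins also rose, while a second sequestrase did not pass. HSP104, the disaggregase, read 16.1 to 37.8 on the dried arrays (median 23.9), against 7.21 and 6.15 on the fresh arrays, a change of 1.90 ± 0.24 (adjusted p = 0.000477). BTN2, a sequestrase that gathers misfolded proteins into deposits, read 17.5 to 35.3 on the dried arrays (median 26.3), against 8.74 and 4.84 on the fresh arrays, a change of 1.96 ± 0.25 (adjusted p = 0.000532). Neither gene had a dried array at the level of a fresh one. HSP78, the mitochondrial relative of HSP104, read 11.1 to 25.3 on the dried arrays, against 7.78 and 5.66 on the fresh arrays, and rose by 1.26 ± 0.21 (adjusted p = 0.00328). HSP42, a small heat shock protein that also sequesters misfolded proteins, changed by 0.97 ± 0.24 (adjusted p = 0.0554).

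The Hsp90 machinery had smaller rises of HSP82 and CPR6. HSP82, the inducible Hsp90, read 14.8 to 61.2 on the dried arrays (median 29.9), against 9.49 and 8.47 on the fresh arrays, and rose by 1.66 ± 0.26 (adjusted p = 0.00265). CPR6, a cyclophilin that binds Hsp90, rose by 1.13 ± 0.21 (adjusted p = 0.00823), and MBF1, a transcriptional coactivator placed in the chaperone list, by 0.97 ± 0.21 (adjusted p = 0.0258). All 3 genes were held. Of other proteins that work with Hsp90, AHA1, which stimulates its ATPase, did not pass at 0.69 ± 0.21 (adjusted p = 0.146), and neither did the co-chaperone CNS1 at -0.33 ± 0.26 (adjusted p = 0.706). CNS1 was the single gene of 43 in the chaperone list with all 8 dried arrays below both fresh arrays (3.88% of all genes). For 10 of the 43, AHA1 and HSP42 among them, all 8 lay above (4.49% of all genes). SSA2, a constitutive Hsp70, rose by 1.24 ± 0.30 (adjusted p = 0.0442), but its lowest dried array, at 13.2, lay below the higher fresh array, at 14.1. The near-identical genes of the Hsp70 and Hsp90 families may share signal on these probe sets.

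The heat shock chaperone list had 43 measured members, of which 9 rose, 34 did not pass and 0 fell, and their median change was 0.28, where 1.36% of all genes rose and the median of all genes was -0.00. The list's median was 0.78 at 1 h and 0.23, 0.16 and 0.16 at 2, 4 and 8 h. It was 0.07 without replicate 2 of 0 h and 0.17 without replicate 1 of 2 h. The calls of SSA4, SSA3, HSP104 and BTN2 passed whichever array was left out. Those of HSP82, CPR6, MBF1 and SSA2 ended without either 0 h array, those of MBF1 and SSA2 also without either 1 h array or replicate 2 of 4 h, that of SSA2 also without replicate 1 of 4 h, and that of HSP78 without replicate 2 of 0 h. The change of SSA2 was 0.83 without replicate 2 of 0 h. Chaperones of the endoplasmic reticulum, 18 genes, had 0 calls in limma (1 higher and 2 lower at an unadjusted p under 0.05) and a median of 0.00, with KAR2, the Hsp70 there, at 0.64 ± 0.23 (adjusted p = 0.233). Of all 5365 genes, 412 were higher and 223 lower at that unadjusted threshold. The chaperonin CCT and prefoldin, 15 genes, had 0 calls at either threshold, with a median of -0.11.

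Outside the chaperones, YKL107W, a gene of uncharacterised product with the look of a short-chain dehydrogenase, had the next largest rise. It read 3.51 to 17.4 on the dried arrays (median 9.09), against 1.45 and 0.927 on the fresh arrays, a change of 2.87 ± 0.23, or 7.32-fold (adjusted p = 1.25e-05). ALD3, a cytosolic aldehyde dehydrogenase induced by stress, read 10.2 to 42.4 on the dried arrays (median 17.6), against 4.31 and 2.87 on the fresh arrays, a change of 2.36 ± 0.32 (adjusted p = 0.000776). ARO9, the aromatic aminotransferase that starts the breakdown of tryptophan and its relatives, read 7.68 to 16.4 on the dried arrays (median 10.3), against 2.25 and 2.07 on the fresh arrays. Its change was 2.31 ± 0.21 (adjusted p = 4.1e-05), and for all 3 genes every dried array lay above both fresh arrays. STL1, the proton symporter that brings glycerol into the cell, read 6.41 to 20.5 on the dried arrays (median 13.2), against 2.3 and 3.27 on the fresh arrays, a change of 2.17 ± 0.32 (adjusted p = 0.00185). BUD2, which activates the GTPase of bud site selection, was at the floor of 0.1 times the median on both fresh arrays and read 0.372 to 0.698 on the dried arrays. At that floor BUD2 was 5.16-fold higher in dried yeast (adjusted p = 0.00544), a size that depends on the floor. It stayed below the array median throughout. Its fresh values lay below the filter on dim genes, so it was tested only through its dried values, and with a floor of 0.5 its change was 0.17 without a call. Leaving out a 0 h array ended the call of ALD3 (replicate 2), of STL1 (replicate 1) and of BUD2 (either one).

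Fatty acid import into the peroxisome and breakdown there gave the next group of rises. The peroxisomal beta-oxidation list had 5 of 32 genes higher and 0 lower, with a median change of 0.31, where 1.36% of all genes were higher and 0.746% lower. PXA2 and PXA1 form the transporter that carries long-chain fatty acids across the peroxisomal membrane. PXA2 read 1.87 to 6.03 on the dried arrays (median 4.22), against 1.13 and 1.16 on the fresh arrays, a change of 1.73 ± 0.19 (adjusted p = 0.000287). PXA1 read 3.21 to 8.05 on the dried arrays (median 6.63), against 2.57 and 1.81 on the fresh arrays, a change of 1.5 ± 0.23 (adjusted p = 0.00214). Both subunits were held, and the lowest dried value of each was on an 8 h array. FAA2, which joins medium-chain fatty acids to coenzyme A, read 5.09 to 14.1 on the dried arrays, against 2.99 and 3.62 on the fresh arrays, and rose by 1.44 ± 0.21 (adjusted p = 0.00136). ECI1, an isomerase for unsaturated fatty acids, rose by 1.26 ± 0.23 (adjusted p = 0.00823), and FOX2, the multifunctional enzyme of the middle steps, by 1.11 ± 0.25 (adjusted p = 0.0338). FOX2 read 27.7 to 62.5 on the dried arrays, against 20 and 15.9 on the fresh arrays. CTA1, the peroxisomal catalase, did not pass at 1.05 ± 0.29 (adjusted p = 0.0898).

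PEX9, an import receptor for a few enzymes of the peroxisomal matrix, read 1.58 to 3.07 on the dried arrays (median 2.25), against 0.475 and 0.732 on the fresh arrays, a held change of 1.91 ± 0.23 (adjusted p = 0.000334). Of 28 other peroxins on the fixed list, which did not include PEX9, 0 passed, 6 had all dried arrays above fresh yeast and 0 had all below (4.49% and 3.88% of all genes), with a median of 0.26 that was 0.14 without replicate 2 of 0 h. At an unadjusted p under 0.05 in limma, 7 of the 28 were higher and 0 lower, beside 412 and 223 of all 5365 genes. PEX18, a co-receptor for another import signal, was nearest at 1.00 ± 0.25 (adjusted p = 0.0554). ELO1, an elongase of medium-chain fatty acids, was the single gene of 23 in fatty acid synthesis that rose, by 1.02 ± 0.21 (adjusted p = 0.019), where 1.36% of all genes rose. Only the calls of PXA2 and PEX9 among these genes passed whichever array was left out: those of FAA2 (replicate 1), PXA1 (replicate 2), and ECI1, FOX2 and ELO1 (either one) ended without a 0 h array, those of FOX2 and ELO1 also without either 1 h array, and that of FOX2 also without either 4 h array.

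**Figure D2:**
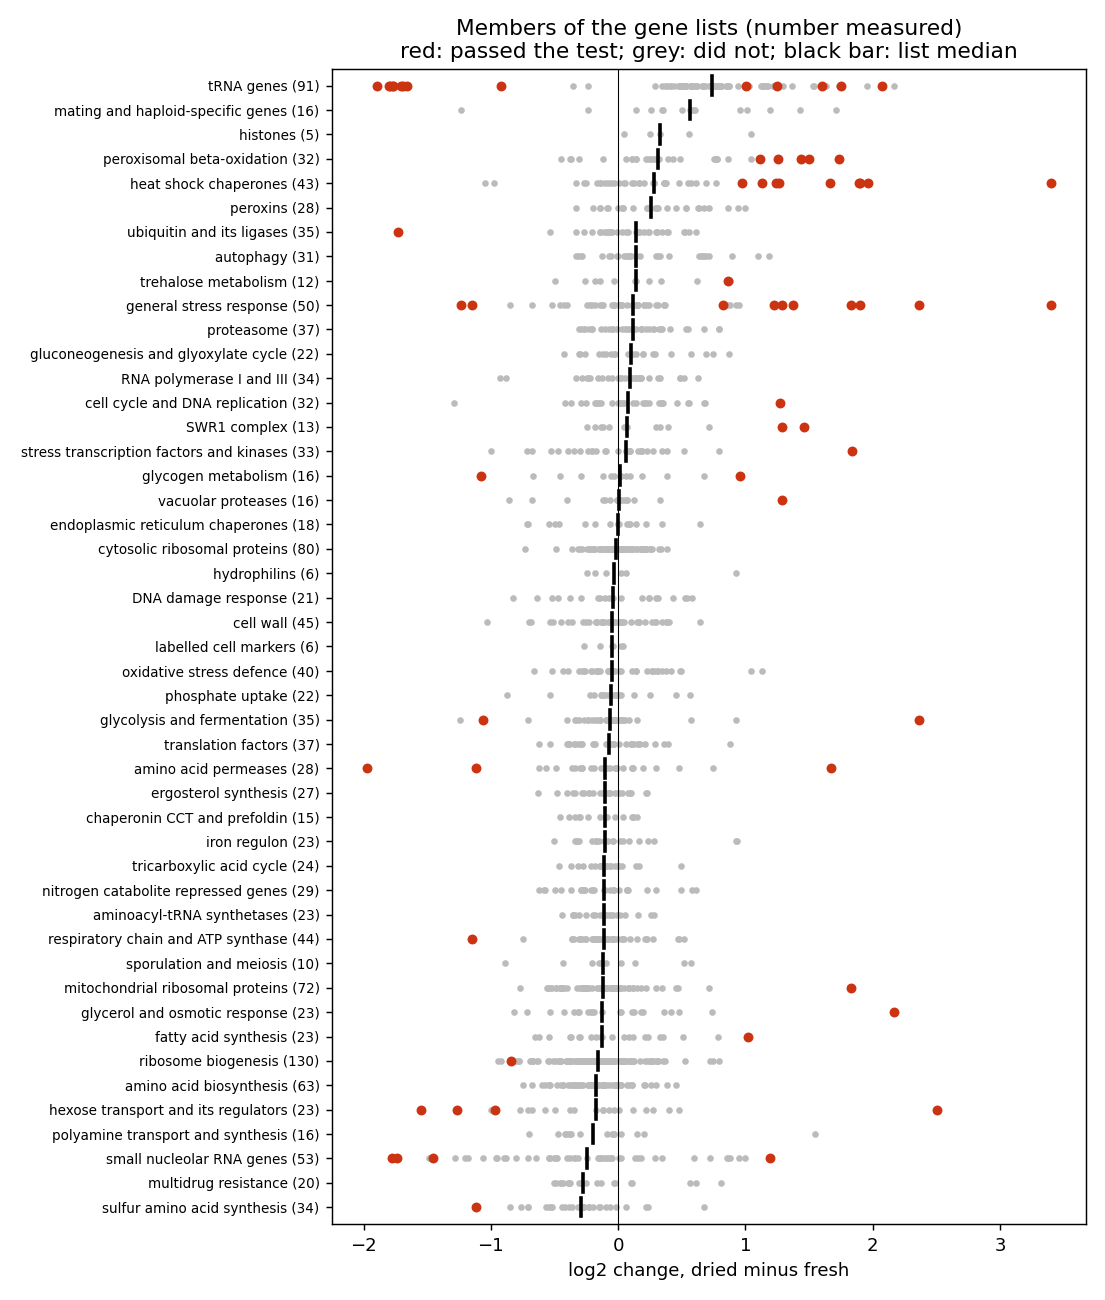
Change of each measured member of 47 gene lists (x axis, log2 of dried over fresh), 1 row per list with the number of genes measured in brackets, ordered by the list median (black bar). Red points passed the test and grey points did not. The chaperone row reaches 3.40, the tRNA row has red points on both sides of 0, and rows such as cytosolic ribosomal proteins (80 genes) and the proteasome (37 genes) have none.

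Of 50 general stress genes, 8 rose, 2 fell and 40 did not pass, with a median of 0.12, beside 1.36% of all genes that rose and 0.746% that fell. SSA4, HSP104 and ALD3 were among them, followed by RTN2, a reticulon of the endoplasmic reticulum. RTN2 read 0.669 to 1.98 on the dried arrays (median 1.3), against 0.258 and 0.494 on the fresh arrays, a change of 1.83 ± 0.31 (adjusted p = 0.00391). PHM7, of unknown function, rose by 1.38 ± 0.22 (adjusted p = 0.00285), PAI3, the inhibitor of the vacuolar protease Pep4, by 1.29 ± 0.26 (adjusted p = 0.0173), and RTC3 by 1.22 ± 0.23 (adjusted p = 0.0089). NQM1, a transaldolase, rose by 0.83 ± 0.18 (adjusted p = 0.026). The pair that fell was CYC7, the minor isoform of cytochrome c, at -1.15 ± 0.20 (adjusted p = 0.00665), and YRO2, a membrane protein related to Hsp30, at -1.24 ± 0.24 (adjusted p = 0.00978). CYC7 read 2.35 to 5.04 on the dried arrays, against 8.61 and 6.74 on the fresh arrays, without overlap. YRO2 overlapped, at 5.87 to 26.5 on the dried arrays, against 22.2 and 28.5 on the fresh arrays. Leaving out the first or second fresh array gave a list median of 0.24 or -0.03, and leaving out replicate 1 of 2, 4 or 8 h one of 0.04 to 0.05. The call of RTN2 ended without replicate 1 of 0 h, and those of PHM7, PAI3, RTC3, NQM1, CYC7 and YRO2 without either 0 h array, those of PAI3 and NQM1 also without replicate 1 of 1 h and that of NQM1 also without replicate 2 of 1 h or of 4 h.

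Several textbook drying genes did not pass. HSP12, which protects membranes, read 91.1 to 278.5 on the dried arrays (median 161.2), against 197 and 126.7 on the fresh arrays, and changed by 0.02 ± 0.39 (adjusted p = 0.994). TPS1, the synthase of trehalose phosphate, read 22.2 to 32.6 on the dried arrays, against 31.6 and 22 on the fresh arrays, a change of -0.04 ± 0.23 (adjusted p = 0.977). Dried and fresh arrays overlapped in both cases, and both signals were already far above the array median in fresh yeast. GPD1, which makes glycerol phosphate, changed by 0.48 ± 0.22 (adjusted p = 0.418), the cytosolic catalase CTT1 by 0.31 ± 0.23 (adjusted p = 0.674), the heat shock factor HSF1 by -0.11 ± 0.29 (adjusted p = 0.944) and actin, ACT1, by -0.05 ± 0.30 (adjusted p = 0.977). The signs of HSP12, TPS1, HSF1 and ACT1 turned in other settings, so none has a direction here. Among 6 hydrophilins, 40 oxidative defence genes and 31 autophagy genes, 0 passed in limma. At an unadjusted p under 0.05, 1 hydrophilin was higher, 2 oxidative defence genes were higher and 1 lower, and 9 autophagy genes were higher and 0 lower, beside 412 higher and 223 lower of all 5365 genes. ATG11, a scaffold of selective autophagy, was nearest in that list at 0.72 ± 0.21 (adjusted p = 0.113).

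Storage carbohydrate genes had 1 call in trehalose metabolism and 2, in opposite directions, in glycogen metabolism. Of all genes 1.36% were higher and 0.746% lower. ATH1, the acid trehalase, was the call among 12 trehalose genes, at 0.87 ± 0.21 (adjusted p = 0.042). It read 4.21 to 10.8 on the dried arrays (median 8.28), against 4.39 and 4.14 on the fresh arrays, so its lowest dried array lay within the fresh range. TPS2, the phosphatase that completes trehalose synthesis, did not pass at 0.88 ± 0.23 (adjusted p = 0.0684), although its dried arrays, at 37.4 to 55.3, all lay above the fresh arrays, at 26.0 and 23.8. Among 16 glycogen genes, SGA1, a glucoamylase that digests glycogen, rose by 0.96 ± 0.23 (adjusted p = 0.0434), and GAC1, which directs phosphatase to glycogen synthase, fell. GAC1 read 4.78 to 7.66 on the dried arrays, against 16.1 and 12.5 on the fresh arrays, a change of -1.08 ± 0.21 (adjusted p = 0.0115). The calls of ATH1, SGA1 and GAC1 ended without either 0 h array, those of ATH1 and SGA1 also without either 1 h array, replicate 1 of 2 h or replicate 2 of 4 h, and that of SGA1 also without replicate 1 of 4 h or of 8 h. The change of SGA1 was 0.56 without replicate 2 of 0 h. In a limma fit of single probe sets, its probe sets did not pass (adjusted p = 0.0535 and 0.0548).

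Sugar transporters moved in both directions. HXT1, a low-affinity glucose transporter, read 4.59 to 29.1 on the dried arrays (median 16.1), against 2.97 and 2.27 on the fresh arrays, and rose by 2.51 ± 0.30 (adjusted p = 0.000327). HXT4, a transporter of higher affinity, read 1.84 to 5.56 on the dried arrays (median 4.07), against 12.1 and 8.23 on the fresh arrays, and fell by 1.55 ± 0.25 (adjusted p = 0.00298). HXT8, a little-studied member of the family, read 1.12 to 1.5 on the dried arrays, against 3.49 and 2.74 on the fresh arrays, and fell by 1.26 ± 0.21 (adjusted p = 0.00422). Each of the 3 genes was held, in opposite directions for HXT1 and the other pair. MTH1, a repressor of hexose transporter genes, read 7.52 to 10.8 on the dried arrays, against 20.2 and 15.5 on the fresh arrays, and fell by 0.97 ± 0.19 (adjusted p = 0.0125). In all, 1 of 23 genes of hexose transport and its regulators rose and 3 fell, with a median of -0.17, beside 1.36% and 0.746% of all genes. The arrays measured bulk RNA, so fewer cells with a transcript and less of it per cell cannot be told apart. The call of HXT1 passed whichever array was left out, those of HXT4 and HXT8 ended without replicate 1 of 0 h, and that of MTH1 without either 0 h array. The list's median was -0.49 without replicate 2 of 0 h and -0.28 without replicate 1 of 8 h.

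Amino acid permeases showed a similar spread, with 1 of 28 higher, 2 lower and a median of -0.10 (-0.04 or -0.21 with the first or second fresh array left out, -0.15 with replicate 1 of 4 h and -0.07 with replicate 2 of 8 h left out). Of all genes 1.36% were higher and 0.746% lower. GNP1, a glutamine permease, read 0.932 to 5.31 on the dried arrays (median 2.47), against 0.693 and 0.8 on the fresh arrays, a held rise of 1.67 ± 0.26 (adjusted p = 0.00265). DIP5, a permease for glutamate and aspartate, had the largest mean fall of all genes at -1.98 ± 0.26 (adjusted p = 0.000696), but it was not held. It read 1.41 to 19.1 on the dried arrays (median 4.3), against 20.4 and 16.4 on the fresh arrays, and its change was -0.16, -2.10, -2.30 and -3.35 at 1, 2, 4 and 8 h. MUP3, a methionine permease of low affinity, read 1.06 to 2.21 on the dried arrays, against 3.34 and 3.43 on the fresh arrays, a held fall of -1.12 ± 0.20 (adjusted p = 0.00682). MUP3 was also the single call among 34 sulfur amino acid genes, whose median was -0.29. The calls of GNP1 and DIP5 ended without replicate 1 of 0 h and that of MUP3 without either 0 h array. Among 63 genes of amino acid biosynthesis 0 passed in limma (0 higher and 7 lower at an unadjusted p under 0.05), with the asparagine synthetase gene ASN1 nearest at -0.75 ± 0.19 (adjusted p = 0.064). Of all 5365 genes, 412 were higher and 223 lower at an unadjusted p under 0.05.

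The largest held falls among protein-coding genes were YKR075C, VID24 and HXT4. YKR075C, of unknown function, read 2.75 to 11.5 on the dried arrays (median 6.83), against 27.8 and 14.6 on the fresh arrays, a change of -1.77 ± 0.31 (adjusted p = 0.00638). VID24, the part of the GID ubiquitin ligase that recognises gluconeogenic enzymes, read 3.09 to 9.83 on the dried arrays (median 7.36), against 25.5 and 15.2 on the fresh arrays, a change of -1.73 ± 0.26 (adjusted p = 0.00191). Both kept a gap between the highest dried array and the lower fresh array. Regulators of transcription among the held falls were SOK2, which acts downstream of protein kinase A, and ZNF1, an activator of genes for growth on other carbon sources. SOK2 read 1.08 to 2.05 on the dried arrays, against 3.62 and 3.86 on the fresh arrays, a change of -1.42 ± 0.23 (adjusted p = 0.00285). ZNF1 changed by -1.25 ± 0.24 (adjusted p = 0.0089). PMA2, the minor proton pump of the plasma membrane, read 4.52 to 9.07 on the dried arrays, against 13.8 and 17.3 on the fresh arrays, a change of -1.32 ± 0.20 (adjusted p = 0.00197). PDC6, the minor pyruvate decarboxylase, changed by -1.06 ± 0.19 (adjusted p = 0.00823).

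Further held falls had products of unknown function. YMR175W-A, YOR338W, YNR014W and YHR210C changed by -1.27 ± 0.23, -1.18 ± 0.26, -1.17 ± 0.25 and -1.03 ± 0.23, with adjusted p between 0.00672 and 0.0328. RMD6, needed for meiotic nuclear division, had a mean fall of -1.95 ± 0.47 (adjusted p = 0.0442), but its dried arrays, at 0.252 to 2.26, overlapped the fresh arrays, at 4.85 and 2.09. In a limma fit of single probe sets, the probe set behind this value did not pass (adjusted p = 0.0601). The other probe sets of RMD6 gave -1.84 and -0.79 there and did not pass either. All of these calls and those of the preceding falls ended without a 0 h array: replicate 1 for YKR075C, VID24 and HXT4, replicate 2 for PMA2 and either one for the rest. Those of RMD6, YHR210C and YOR338W also ended without either 1 h array or replicate 2 of 4 h, that of RMD6 also without replicate 1 of 4 h, and that of YNR014W also without replicate 1 of 1 h.

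A few rises came from other lists or from no list. SWR1, the ATPase of the complex that places the histone variant H2A.Z, rose by 1.46 ± 0.22 (adjusted p = 0.00185), and BDF1, a bromodomain protein of the same complex, by 1.29 ± 0.21 (adjusted p = 0.00308). These were 2 of 13 genes of the complex, whose median was 0.07, where 1.36% of all genes rose. The SWR1 value is that of its brightest probe set, and 6 others gave -0.81 to 1.70 with 0 passing, so the gene's rise rests on 1 probe set. CDC28, the cyclin-dependent kinase of the cell cycle, read 0.658 to 0.981 on the dried arrays, against 0.274 and 0.345 on the fresh arrays, a held rise of 1.27 ± 0.30 (adjusted p = 0.0406) that was 0.57 without a call when the floor was 0.5. CIN5, a stress transcription factor of the bZIP class, rose by 1.84 ± 0.19 (adjusted p = 0.000112) but overlapped at 8 h. FMP48, a kinase-like mitochondrial protein on none of the lists, read 5.62 to 21.0 on the dried arrays, against 3.52 and 4.04 on the fresh arrays, a held rise of 1.81 ± 0.25 (adjusted p = 0.00102). MRPL3, a mitochondrial ribosomal protein, had dried arrays at 2.3 to 3.09 and fresh arrays at 0.3 and 1.94, so its change of 1.83 ± 0.44 (adjusted p = 0.0454) was 0.48 when the first fresh array was left out and 3.17 when the second was. Leaving out replicate 1 of 0 h ended the calls of SWR1, BDF1, FMP48 and MRPL3, leaving out either 0 h array or either 1 h array or replicate 2 of 4 h that of CDC28, and leaving out either 1 h or 4 h array or replicate 1 of 2 h or 8 h that of MRPL3.

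Growth genes as lists had few or no calls. Of 80 cytosolic ribosomal protein genes measured, 0 passed in limma, with 0 also at an unadjusted p under 0.05 and a median of -0.02. Of 130 ribosome biogenesis genes, 0 rose and 1 fell, beside 1.36% and 0.746% of all genes. Their median was -0.16 (-0.10 without replicate 1 of 8 h). All dried arrays lay above fresh yeast for 2 of them and below for 11 (4.49% and 3.88% of all genes). At an unadjusted p under 0.05, 2 were higher and 8 lower, beside 412 and 223 of all 5365 genes. The gene that fell was NSR1, a nucleolar protein of pre-rRNA processing. It read 2.52 to 4.13 on the dried arrays, against 6.65 and 5.66 on the fresh arrays, a change of -0.84 ± 0.20 (adjusted p = 0.0454). Its call ended without any of the 6 arrays of 0, 1 and 4 h. Of 37 proteasome genes 0 passed, with 4 higher and 0 lower at an unadjusted p under 0.05, and RPN4, the activator of that list, was at 0.79 ± 0.20 (adjusted p = 0.0554). Genes of mating and haploid cells, chosen as marks of another kind of yeast cell, had 0 calls among 16 (4 higher and 1 lower at an unadjusted p under 0.05), with a median of 0.57. The median of these genes was 0.37 without replicate 2 of 0 h and 0.03 with a floor of 0.5. Their summed signal was 12.8 to 24.9 on the dried arrays, against 13.7 and 9.47 on the fresh arrays, and 14 of the 18 listed stayed below the array median on average, with 0 at the floor on every array. The sum for 14 sporulation genes was 4.96 to 6.79 on the dried arrays, against 5.47 and 5.58 on the fresh arrays. The part of either cell kind in the results was not tested.

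Among RNA genes, 9 of 91 tRNA genes fell, and all 9 had their 8 dried arrays below both fresh arrays, where 0.746% of all genes fell and 3.88% had all dried arrays below. Each was named by a probe set of the family type, which can bind several near-identical tRNA genes, so the 9 values may stand for fewer transcripts. YNCB0015W, the largest held fall of all genes, read 3.0 to 6.69 on the dried arrays (median 3.83), against 16.6 and 13.3 on the fresh arrays. Its change was -1.89 ± 0.23 (adjusted p = 0.000327), and -1.47, -1.96, -1.91 and -2.24 at 1, 2, 4 and 8 h. Next were YNCJ0011W at -1.80 ± 0.21, YNCE0010W at -1.79 ± 0.21, YNCD0011W at -1.77 ± 0.21 and YNCM0004C at -1.77 ± 0.23, with adjusted p between 0.000322 and 0.000532. YNCK0006C, YNCJ0014C and YNCM0033C changed by -1.71, -1.69 and -1.66, and YNCJ0008W by -0.92 ± 0.22 (adjusted p = 0.0434). Of the 9, YNCM0033C ended without replicate 1 of 0 h, and YNCJ0008W without any array of 0, 1 or 4 h or replicate 1 of 2 h, while the other 7 passed whichever array was left out.

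Most other tRNA genes lay above fresh yeast after the first hour. Of the 91, 80 had a positive mean change, with a median of 0.74, but 5 passed as higher (49 at an unadjusted p under 0.05) and 0 had all dried arrays above fresh yeast. Of all 5365 genes, 2659 had a positive change and 1.36% passed as higher (412 at an unadjusted p under 0.05 in limma). All dried arrays lay above fresh yeast for 4.49% of all genes. The median change of the 91 was -0.48, 1.14, 1.11 and 1.24 at 1, 2, 4 and 8 h. SUF5, a tRNA for glycine, read 8.01 to 139.9 on the dried arrays (median 58.8), against 9.95 and 10.2 on the fresh arrays, a change of 2.08 ± 0.33 (adjusted p = 0.00274). SUF3, another tRNA for glycine, rose by 1.60 ± 0.21 (adjusted p = 0.00068), and CDC65, a tRNA for glutamine, by 1.75 ± 0.33 (adjusted p = 0.00949). HSX1, a tRNA for arginine, rose by 1.25 ± 0.29 (adjusted p = 0.0389) and YNCB0013W by 1.00 ± 0.24 (adjusted p = 0.0475). In a limma fit of single probe sets, that of HSX1 did not pass (adjusted p = 0.0516). Family probe sets named 4 of the 5 genes, all but HSX1, and Pearson's r between the 5 was 0.926 to 0.986 over the 10 arrays, so they too may stand for fewer transcripts. At 1 h the 5 genes stood at -0.32, -0.68, -0.07, -0.90 and -0.36, below or near fresh yeast, and at 2 h at 2.51, 1.63, 2.23, 1.84 and 1.29. The change of HSX1 was 1.96 without the 1 h arrays, and the tRNA median 1.17. Median tRNA signal was 11.2 and 9.79 at 1 h, 49.9 and 48.3 at 2 h, 36.2 and 29.7 at 4 h and 96.4 and 17.9 at 8 h, against 17.8 and 10.8 in fresh yeast. The highest of these arrays, replicate 1 of 8 h, was also the dimmest and had the second highest actin ratio, and the part of poly(A) enrichment or RNA quality in these values was not tested. The call of SUF3 passed whichever array was left out, those of SUF5 and CDC65 ended without either 0 h array, and those of HSX1 and YNCB0013W also without any array of 1 or 4 h or replicate 1 of 2 h.

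**Figure D3:**
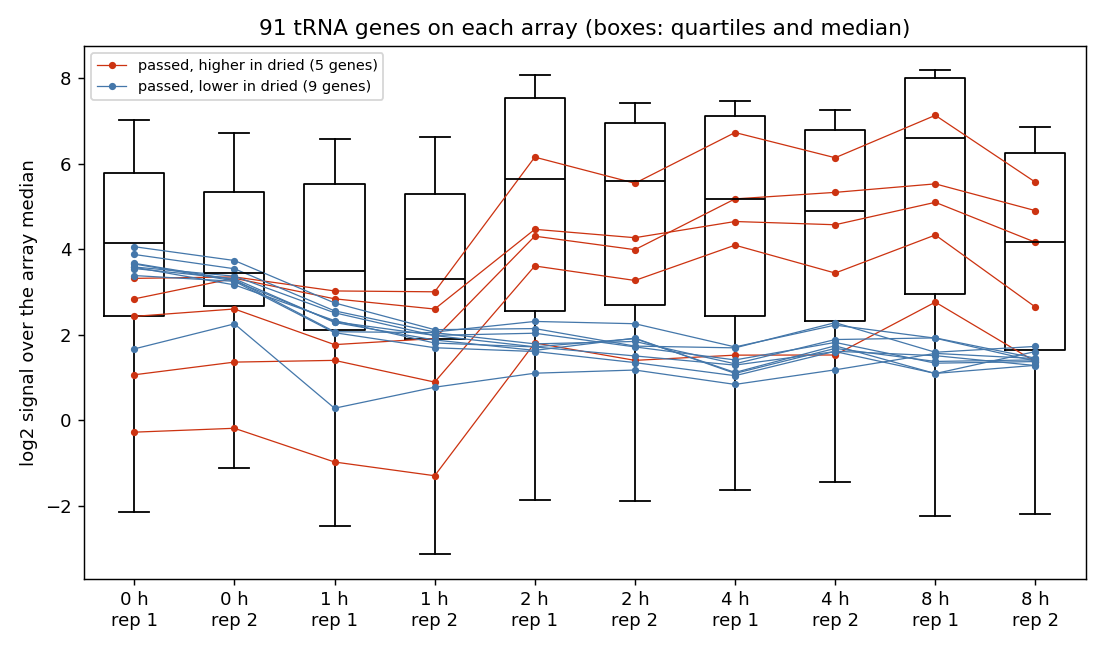
Signal of 91 tRNA genes on each of the 10 arrays, in order of drying time (x axis), as log2 of signal over the array median (y axis). Boxes give the quartiles and median. Whiskers stop short of outlying genes, for which no separate points are drawn. Lines follow the 5 genes that passed as higher and the 9 that passed as lower in dried yeast. The 9 falling lines lie lower on every dried array than on either array of 0 h, the boxes of 2 and 4 h lie above those of 0 and 1 h, and the duplicates of 8 h differ, at medians of 96.4 and 17.9.

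Of 53 snoRNA genes, 1 rose and 3 fell, beside 1.36% and 0.746% of all genes. All dried arrays lay above fresh yeast for 0 of them and below for 10 (4.49% and 3.88% of all genes). At an unadjusted p under 0.05, 4 were higher and 12 lower, beside 412 and 223 of all 5365 genes. The median of the snoRNA genes was -0.24. It was -0.01 when replicate 1 of fresh yeast was left out and -0.47 when replicate 2 was, and -0.42 or -0.10 with the first or second 2 h array left out. SNR34, which guides pseudouridine formation in rRNA, read 0.98 to 2.87 on the dried arrays (median 1.7), against 6.85 and 5.49 on the fresh arrays, a change of -1.78 ± 0.28 (adjusted p = 0.00265). SNR78, a guide of rRNA methylation, read 0.405 to 1.9 on the dried arrays, against 3.9 and 2.75 on the fresh arrays, a change of -1.74 ± 0.27 (adjusted p = 0.00265). SNR39B, another methylation guide, changed by -1.45 ± 0.31 (adjusted p = 0.025), and all 3 were held. SNR38, also a methylation guide, rose by 1.19 ± 0.22 (adjusted p = 0.00823) with a 1 h change of 0.06 and overlapping arrays. The calls of SNR34 and SNR78 ended without replicate 1 of 0 h and those of SNR38 and SNR39B without either 0 h array, that of SNR39B also without either 1 h array.

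How level the held changes were over the 8 h was asked with a test of differences among the 4 drying times, limma's F test, at the same threshold. It passed for 94 of 5365 genes (1.75%), 18 of them among the 113 genes changed against fresh yeast. Of the 91 tRNA genes, 74 of them read by family probe sets, 32 passed it. Of the 57 held rises 6 passed it: SSA3, YKL107W, PXA2, HXT1, GNP1 and CRF1, a corepressor of ribosomal protein genes, which stood at 2.22, 0.99, 1.16 and 0.64. Of the 37 held falls 0 passed it, and 18 had an unadjusted p under 0.05, as did 827 of all genes (15.4%). The count over all genes was 5 when replicate 1 of 1 h was left out and 2 when replicate 2 was, 54 without either 0 h array, and 193, 145 and 286 without replicate 1 of 2 h and replicates 1 and 2 of 8 h. A gene that did not pass is not thereby shown to be level.

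Most held rises were largest at 1 h and smallest at 8 h. Their median change was 1.63, 1.40, 1.45 and 0.94 at 1, 2, 4 and 8 h, beside 0.04, -0.05, 0.02 and 0.01 for all genes. The largest of the 4 changes was that of 1 h for 33 of the 57 genes, while 35.4% of all genes had their highest dried mean there. The smallest was that of 8 h for 47 of the 57 genes, while 26.9% of all genes had their lowest dried mean there. Held falls were smallest at 1 h for 28 of 37 genes, and their median was -1.02, -1.52, -1.18 and -1.31 at 1, 2, 4 and 8 h. A change of at least 2-fold at every time was seen for 23 of the held rises and 14 of the held falls.

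The held rises whose smallest change over the 4 times was largest were those of SSA4, YKL107W, BUD2, ALD3, ARO9 and STL1. The size for BUD2 depends on the floor, where both of its fresh arrays lay. The rule asks for size at every time and not for a level course, and YKL107W, at 3.32, 3.67, 2.72 and 1.78, differed among the times (adjusted p among times = 0.0136). ARO9 stood at 2.57, 2.58, 2.14 and 1.96 log2 units above fresh yeast at 1, 2, 4 and 8 h, and STL1 at 2.56, 1.74, 2.21 and 2.16. The falls chosen by the same rule were all tRNA genes: YNCB0015W, YNCJ0011W, YNCD0011W, YNCK0006C, YNCJ0014C and YNCM0033C. HXT8 had the most even course of the named falls, at -1.27, -1.25, -1.27 and -1.26. At the other end, SSA3 stood at 3.07, 1.99, 1.43 and 1.09 (adjusted p among times = 0.00177) and PXA2 at 2.31, 2.17, 1.66 and 0.79 (adjusted p among times = 0.0148). CIN5 stood at 2.51, 2.63, 1.95 and 0.28, so that its 8 h arrays overlapped fresh yeast (adjusted p among times = 0.000736).

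**Figure D4:**
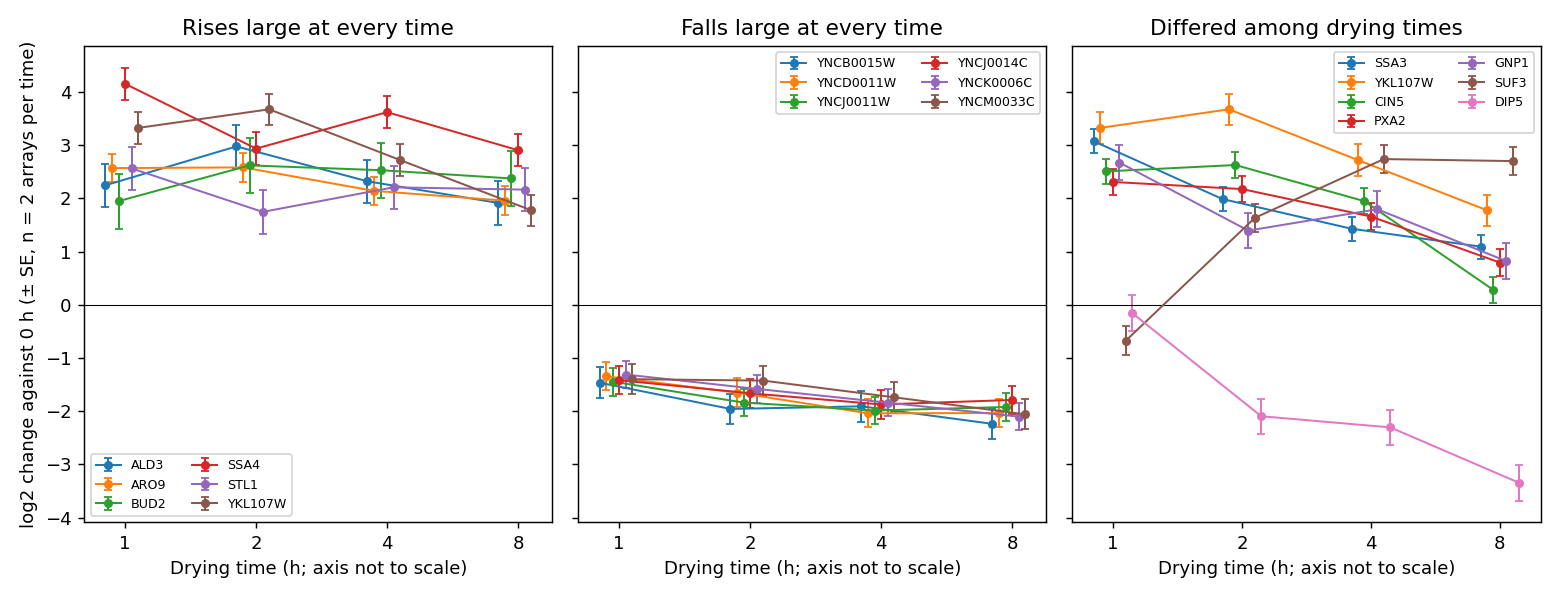
Change against fresh yeast at 1, 2, 4 and 8 h (x axis, spaced evenly) in log2 units (y axis), with points for the mean of 2 arrays and bars for limma's SE. The left panel shows the 6 held rises with the largest smallest change, the middle the 6 such falls, all tRNA genes, and the right 7 genes that differed among drying times, YKL107W of the left panel among them. SUF3 starts at -0.68 and ends at 2.70, DIP5 starts at -0.16 and ends at -3.35, and the lines of the middle panel stay between -1.31 and -2.24.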

How the data were processed

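Each of 10 Affymetrix Yeast Genome S98 arrays (commercial baker's yeast, 2 per drying time) had 1 column of linear signal intensity, deposited by the authors. GCOS, Affymetrix's array software, is named in the submitters' processing notes, and its version and settings are not given in the sources used here. A table of ratios that the labels describe, divided by the 50th percentile of each array, was not used here.

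Each array was divided by the median of its 9275 probe sets of yeast sequences (60 controls left out), floored at 0.1 and converted to log2. Per the array annotation given, 6504 probe sets had 1 gene, 328 several and 2443 none, and a gene was read by its brightest probe set of 1 gene. Genes with a mean below 0.2 times the median were left out, which left 5365 of 5656. Among 269 genes with several probe sets tested, 0 had calls in opposite directions. Group means of the 5 times were fitted to all 10 arrays with limma 3.58.1 in R 4.3.3, with an intensity trend in eBayes. Tests were two-sided with a threshold of 0.05 after Benjamini-Hochberg adjustment. Each SE is limma's, drawn from the spread between duplicates over all 5 times, so changes between times do not enter it. In simulated data for this comparison with 200 of 5365 genes changed, 19.5%, 54%, 79.5% and 90% were recovered at log2 changes of 0.75, 1, 1.5 and 2.

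Without detection calls, dim signal cannot be told from background, and arrays have no read depth: their number limits the precision. Replicate arrays correlated at 0.942 to 0.98. Replicate numbers were not taken to pair arrays across times, because the labels do not say that a number marks a shared run. Deviations of equal numbers correlated above 0.1 in 4 of 10 pairs of times. The actin ratio was higher on replicate 1 than on replicate 2 at every time. It was 5.38 and 2.62 at 0 h, 3.90 and 2.64 at 1 h, and 6.64 and 3.07 at 2 h. At 4 h it was 3.15 and 3.10, and at 8 h 6.44 and 2.70. The cause of this difference was not tested.

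The comparison, the 45 gene lists (to which all tRNA and all snoRNA genes were added by gene type) and the rules were chosen with earlier results of these data known. Named genes were the 15 largest rises and falls of protein-coding genes and the 5 largest of RNA genes that were held and at least 2-fold, up to 4 members of each list that passed (or the nearest 1), the 6 genes of each direction with the largest smallest change over the 4 times, and HSP12, TPS1, GPD1, CTT1, HSF1 and ACT1. Others were chosen after their values were seen: HSP82, HSP78, HSP42, CPR6, AHA1, CNS1, MBF1, SSA2, RTC3, NQM1, FOX2, YRO2, RMD6, TPS2, CRF1, OPI10, HRP1, the genes for tRNA not covered by the rule, and those of the closing observations. A search of promoters was not run, and sequences are not printed. Alternatives covered the scaling, floor, filter, probe set rule, number of groups in the fit, variance trend, array weights, a replicate block and leaving out each array, each time and the dimmest arrays.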

Additional observations from a re-analysis of the deposited data

Results flagged for a closer look

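Among the 8 dried arrays, 2 named genes had 1 array apart from the rest by Dixon's test, which marks about 1 in 20 groups by chance. HSF1 read 0.524 on replicate 2 of 1 h and 0.904 to 1.21 on the other 7, a gap of 0.654 of the range. PXA1 read 3.21 on replicate 1 of 8 h, the dimmest array, and 5.29 to 8.05 on the other 7, a gap of 0.543 of the range, and its rise passed with that array left out.

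Named genes that differed among the 4 drying times by limma's F test, so that 1 mean over all dried arrays hides a course, were of 3 kinds. Rises that were largest at 1 or 2 h were those of SSA3 (adjusted p = 0.00177), YKL107W (0.0136), PXA2 (0.0148), HXT1 (0.0342), GNP1 (0.0381), CRF1 (0.0338) and CIN5 (0.000736). OPI10 (0.0069) stood at 2.15 log2 units above fresh yeast at 1 h and 0.35 at 8 h, HRP1 (0.00746), an RNA-binding cleavage factor, at 2.05 and 0.03, and SIP4 (0.0162), an activator of gluconeogenesis that did not pass against fresh yeast, at 2.13 and -0.16. The change of OPI10 was 0.66, without a call, when the 1 h arrays were left out. RNA genes that were near or below fresh yeast at 1 h and above it later were SUF3 (3.87e-05), SUF5 (0.00177), HSX1 (0.00177), CDC65 (0.0115), YNCB0013W (0.0101) and SNR38 (0.0159). DIP5 (0.00177) and YRO2 (0.0298) fell after 1 h, at -0.16 and -0.28 at 1 h and at -2.10 and -2.05 at 2 h.

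Probe sets that name no gene also carried signal: of 1382 tested, 7 were higher and 4 lower in dried yeast (0.796%, against 1.62% of probe sets with 1 gene). The largest rise was 3.53 ± 0.46 log2 units and the largest fall -1.77 ± 0.20 (SE, n = 8 dried and 2 fresh arrays). The probe set with that rise read 0.184 and 0.202 times the median on the fresh arrays and 1.11 to 4.88 on the dried arrays. Its fresh mean lay below the filter on dim probe sets, so it was tested only through its dried values. The same was true of others of the 7, 1 of them at the floor of 0.1 on both fresh arrays.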

How the results depend on the processing

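Of 85 named calls, 0 changed sign and 18 passed whichever array was left out. With 1 array left out, the count of changed genes was 27 to 191 (19 to 134 higher, 8 to 57 lower), of held genes 26 to 131 and of genes that differed among times 2 to 286. The number of arrays, 2 of fresh yeast, limits the precision.

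The 113 changed genes (73 higher, 40 lower), 94 held and 94 that differed among times became 1 (1 and 0), 1 and 0 without scaling, which moved the median of all genes to -0.17; 48 (25 and 23), 44 and 8 with a floor of 0.5; 60 (39 and 21), 55 and 2 without a variance trend; and 218 (150 and 68), 151 and 220 with array weights. They were 229 (150 and 79), 174 and 369 when the dimmest array of 2 h and of 8 h were dropped, and 190 with 135 higher and 156 held without the 8 h arrays. With dried and fresh as 2 groups, where changes between times count as spread, they were 37 (22 and 15) and 37 held. Quantile normalization gave 112 higher genes and 142 that differed among times, and no filter on dim genes gave 20 genes that differed among times. With the replicate block, 150 genes changed (108 higher, 42 lower), 111 were held and 123 differed among times. The labels do not say that replicate numbers pair the arrays. Deviations of equal numbers correlated at -0.06 to 0.17, above 0.1 in 4 of 10 pairs of times. The cause of these shifts was not tested.

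Signs that turned belonged to genes that did not pass. With 1 array left out, ACT1 was -0.302 to 0.208, HHO1 -0.0125 to 2.1, HSF1 -0.264 to 0.0537, HSP12 -0.293 to 0.342 and TPS1 -0.297 to 0.226. HSP12 was also -0.191, -0.105 and -0.141 with quantile normalization, cyclic loess and no scaling, and -0.0017, -0.0894 and -0.266 without the 1 h, the 2 h and the dimmest arrays. ACT1 was 0.0302 without the 4 h arrays and HSF1 0.00511 without the 1 h arrays.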

Other observations

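Held rises outside the lists, chosen after their values were seen, included RNH203, a subunit of RNase H2, which read 4.23 to 9.65 times the array median on the dried arrays, against 2.87 and 1.44 on the fresh arrays (1.62 ± 0.30 log2 units, SE, n = 8 dried and 2 fresh arrays, adjusted p = 0.00823 in limma). UFE1, a SNARE of the endoplasmic reticulum, read 1.47 to 3.57 on the dried arrays, against 0.792 and 1.03 on the fresh arrays (1.38 ± 0.21, adjusted p = 0.00197). NCE103, the carbonic anhydrase of yeast, read 10.1 to 30.7 on the dried arrays, against 8.01 and 7.96 on the fresh arrays (1.25 ± 0.27, adjusted p = 0.0224). PSF3, a subunit of the GINS complex of DNA replication, changed by 1.5 ± 0.24 (adjusted p = 0.00265), at 0.972 to 1.64 on the dried arrays, against 0.433 and 0.481 on the fresh arrays. SPC105, a kinetochore protein, changed by 1.27 ± 0.24 (adjusted p = 0.0089), and a second probe set of it by -0.53 ± 0.67 without passing.

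Some of the held falls outside the lists, also chosen after their values were seen, were those of SUR2, which hydroxylates sphingoid bases, at -1.0 ± 0.22 (adjusted p = 0.0287), SKS1, a kinase linked to low glucose, at -1.01 ± 0.24 (adjusted p = 0.0419), and PXR1, a nucleolar protein of rRNA processing, at -0.86 ± 0.19 (adjusted p = 0.025). SUR2 read 2.16 to 3.9 on the dried arrays, against 7.01 and 5.26 on the fresh arrays. Without a 0 h array these calls ended for all 8 genes, at replicate 1 for UFE1 and PSF3, replicate 2 for RNH203 and either one for the other 5. Those of NCE103, SUR2, SKS1 and PXR1 also ended without replicate 1 of 1 h or replicate 2 of 4 h, those of SUR2, SKS1 and PXR1 also without replicate 2 of 1 h, and that of SKS1 also without replicate 1 of 4 h.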
